A study of Homo sapiens with 12 samples.

Results

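HK-2 cells kept with a low dose of the compound that the labels call Aa were compared between 48 h and 24 h of exposure. HK-2 is an immortalised human cell line from the proximal tubule of the kidney, the segment that takes up most of the filtered salt, glucose and amino acids. The 6 arrays with Aa, 3 for each time, were chosen by the treatment and duration in their labels, out of 12 arrays in all. The other 6 arrays, 3 for each time, are of control cells that received only the vehicle. All groups grew in the same medium with epidermal growth factor, insulin, transferrin, selenium and hydrocortisone, and were treated when nearly confluent. Neither the full name of Aa nor its numeric dose nor the vehicle is given in the sources used here. The larger study looked for expression signatures of toxicity across several compounds, and the times show how the response to one dose of Aa develops. The arrays are labelled as biological replicates, with nothing on separate cultures, so the p-values reflect how far these samples spread, which may be technical, and in bulk RNA fewer cells of a type cannot be told apart from less RNA per cell.

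Dividing cells transcribe their cell cycle genes in waves. Genes for DNA replication are switched on by E2F factors as cells pass from G1 into S phase, while genes for the spindle, the kinetochore and chromosome condensation are held down by the DREAM complex at promoters with a CHR element and are switched on in G2 and mitosis. In the tubule such genes are known for the repair that follows injury, when surviving epithelial cells divide again. Immediate early genes, stress genes and inhibitors of cyclin-dependent kinases are known to respond to toxic exposure in the same cells.

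The values are log2 signals normalised by GCRMA and were deposited by the authors. A change is the log2 value at 48 h minus that at 24 h, so that 1 means a doubling, and its SE and p come from a limma model of all 12 arrays with the replicate number as a block. Of 19775 genes with a probe set, 10791 had a mean of at least 4 over the 12 arrays and were tested. Arrays of the same Aa group correlated at r = 0.994 to 0.997 and Aa arrays of different times at 0.991 to 0.995. The 3' minus 5' signal of the actin control differed by 0.08 between the times with Aa and that of the GAPDH control by 0.02. The 28S ribosomal control probe sets read 7.37, 7.03 and 7.44 at 24 h and 7.30, 7.57 and 7.80 at 48 h with Aa. The 18S control probe sets read 7.26, 7.32 and 7.61 at 24 h and 7.40, 8.40 and 7.93 at 48 h. They were higher at 48 h in all 3 Aa pairs, by a mean of 0.51, and in all 3 control pairs, by 0.78, and their part in the results was not tested. All 6 epithelial markers were above the filter, while none of the 5 endothelial, 4 leukocyte and 5 distal nephron markers with a probe set were. Of the 10 proximal tubule markers with a probe set only SLC3A1, CDH6 and PAX8 were above it, and LRP2, CUBN, AQP1, ANPEP, GGT1, MME and SLC34A1 lay below, so the label of a proximal tubule cell is met by few of its defining markers. Of 6 fibroblast markers COL1A1, DCN and LUM were above the filter. COL1A1 was 0.70 higher and DCN 0.43 lower at 48 h with Aa. The sum of the log2 values of the 6 markers lay at 36.4 to 37.8 at 24 h and 36.8 to 37.8 at 48 h with Aa. In this sum opposite changes cancel, and COL1A2, PDGFRB and PDGFRA lay below the filter, so it does not show that the markers were stable.

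At 48 h 1228 genes were higher and 1075 lower than at 24 h in Aa cells (limma, Benjamini-Hochberg adjusted p under 0.05), which is 21.3% of the genes tested, or 11.4% up and 9.96% down. Which direction had more calls depended on the scaling: after each array was centred on its median 1080 were higher and 1196 lower, and after quantile normalisation 1182 and 1186. Changes of at least 2-fold were called for 101 genes up (0.936%) and 92 down (0.853%). Without the replicate block 594 genes were called (5.50%), 331 up (3.07%) and 263 down (2.44%), all of them also called with it. The 3 arrays of one time lay wholly on one side of the other 3 in 2607 genes (24.2%). The direction was shared by the 3 replicate pairs in 2297 of the 2303 called genes. Replicates weighed unequally on the count: without replicate 1 of every group 126 genes were called, without replicate 3 285, and without replicate 2 1633. Among the called genes replicate pair 2 had the smallest changes, with a slope of 0.75 on the mean of the other pairs, against 1.07 for pair 1 and 0.99 for pair 3. A fit on the 6 Aa arrays alone called 904 genes. Without the probe sets whose names mark them as shared between transcripts, 1522 of 8018 genes were called.

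**Figure D1:**
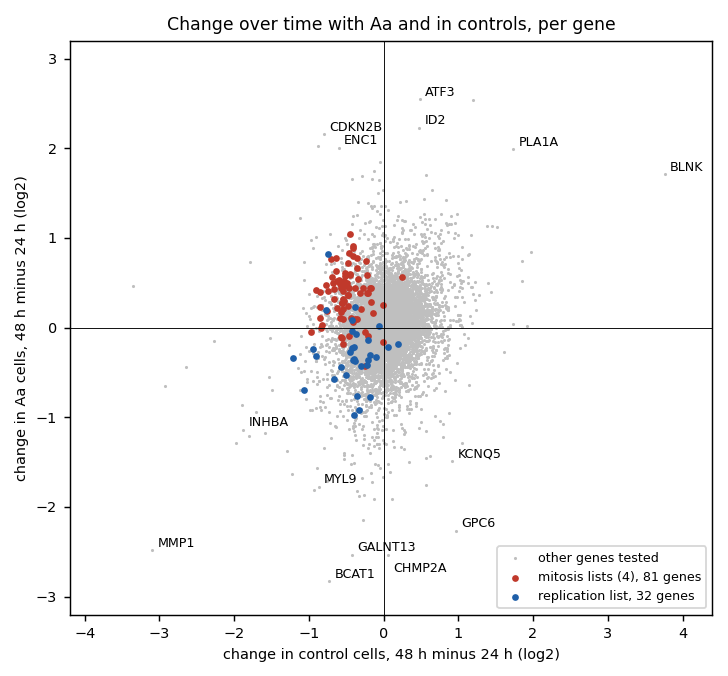
Change from 24 h to 48 h of each of the 10791 genes tested, in control cells (horizontal, log2) and in Aa cells (vertical, log2), as means over 3 replicate pairs. The 81 mitosis genes (red) lie mostly above 0 with Aa and below 0 in controls, and the 32 replication genes (blue) mostly below 0 in both.

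The largest rises with Aa were in a transcription factor of the stress response, an inhibitor of differentiation and an inhibitor of cyclin-dependent kinases. ATF3, a stress-induced factor of the ATF and CREB family, read 6.61, 5.43 and 7.20 at 24 h and 8.56, 9.89 and 8.44 at 48 h. It rose by 2.55 ± 0.49 (SE, adjusted p = 0.00946), and replicate 2 rose most. ID2, which binds and blocks basic helix-loop-helix factors, read 9.12, 8.59 and 8.68 at 24 h and 11.18, 11.19 and 10.71 at 48 h. It rose by 2.23 ± 0.12 (SE, adjusted p = 0.000162). CDKN2B encodes p15, which blocks CDK4 and CDK6, and read 5.43, 4.81 and 5.12 at 24 h and 7.19, 7.65 and 6.99 at 48 h. It rose by 2.16 ± 0.27 (SE, adjusted p = 0.00214). In ID2 and CDKN2B the arrays of the times did not overlap, which the rule that named the genes of this paragraph required. ENC1, an actin-binding protein, rose by 2.004 ± 0.16 (SE, adjusted p = 0.000624), and PLA1A, a secreted phospholipase, by 1.99 ± 0.12 (SE, adjusted p = 0.000205). ZNF165, a zinc finger gene, rose by 1.85 ± 0.20 (SE, adjusted p = 0.0014). SERPINA6, which carries glucocorticoids in blood, rose by 1.70 ± 0.20 (SE, adjusted p = 0.0019), and ADM, the vasodilator adrenomedullin, by 1.69 ± 0.33 (SE, adjusted p = 0.0101).

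A further 4 rises began under the filter level of 4, so their sizes are uncertain. FZD7, a WNT receptor, went from a mean of 3.53 to 5.28, and NANOS1, a translational repressor, from 3.68 to 5.07. KCTD13 and TDRKH rose by 1.09 (adjusted p = 0.00331) and 0.99 (adjusted p = 0.0201). The rule that chose the 12 called genes named here asked for a call without the replicate block too. It also asked that the Aa arrays of the times not overlap. With replicate 1, 2 or 3 left out of every group, 6, 10 and 9 of the 12 were called. ATF3, ZNF165 and NANOS1 were not called without replicate 3, nor NANOS1 and TDRKH without replicate 2. ID2, CDKN2B, ENC1, PLA1A and SERPINA6 were called in every alternative run that tested them.

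The largest falls joined an enzyme of amino acid breakdown, secreted proteins and subunits of complexes that shape membranes. BCAT1, which transfers the amino group of leucine, isoleucine and valine, read 6.94, 7.20 and 8.20 at 24 h and 3.62, 4.19 and 6.04 at 48 h. It fell by 2.83 ± 0.24 (SE, adjusted p = 0.000624), with replicate 3 above the others at both times. CHMP2A, a subunit of the ESCRT-III complex that cuts membranes, read 10.22, 10.82 and 10.77 at 24 h and 7.07, 9.47 and 7.66 at 48 h and fell by 2.54 ± 0.38 (SE, adjusted p = 0.00374). Replicate 2 of CHMP2A fell least. MMP1, the interstitial collagenase, read 8.67, 8.70 and 8.71 at 24 h and 6.14, 6.44 and 6.06 at 48 h. It fell by 2.48 ± 0.19 (SE, adjusted p = 0.000531), with almost no spread at 24 h. GALNT13, an enzyme that starts O-linked glycans, fell by 2.54 ± 0.33 (SE, adjusted p = 0.00232), and MICOS13, a subunit of the complex that shapes mitochondrial cristae, by 1.92 ± 0.27 (SE, adjusted p = 0.00323). GMDS, which makes GDP-fucose, fell by 1.91 ± 0.46 (SE, adjusted p = 0.0211), and MTHFD2L, a mitochondrial folate enzyme, by 1.88 ± 0.12 (SE, adjusted p = 0.000205). Only 1 of the 2 MTHFD2L probe sets moved this way. MYL9, a myosin light chain of contractile cells, read 10.50, 9.97 and 10.85 at 24 h and 8.67, 8.40 and 8.93 at 48 h and fell by 1.77 ± 0.11 (SE, adjusted p = 0.000206).

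VEGFC, a growth factor of lymphatic vessels, MPND, DPH6 and KCNQ5 fell to a mean under the filter level. VEGFC read 5.83, 5.63 and 4.81 at 24 h and 3.04, 3.71 and 3.09 at 48 h, so that its 3 arrays at 48 h lay near the array background, and its change of -2.14 (adjusted p = 0.000624) is uncertain in size. The changes of MPND, DPH6 and KCNQ5 were -1.86 (adjusted p = 0.000814), -1.82 (adjusted p = 0.00626) and -1.49 (adjusted p = 0.00747). The rule that chose the 12 called genes named here asked for a call without the replicate block too. It also asked that the Aa arrays of the times not overlap. The numbers called without replicate 1, 2 or 3 of every group were 7, 12 and 8. CHMP2A, MICOS13, GMDS and DPH6 were not called without replicate 3. GMDS also lost its call in 5 of the 6 fits that left out a single Aa array.

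**Figure D2:**
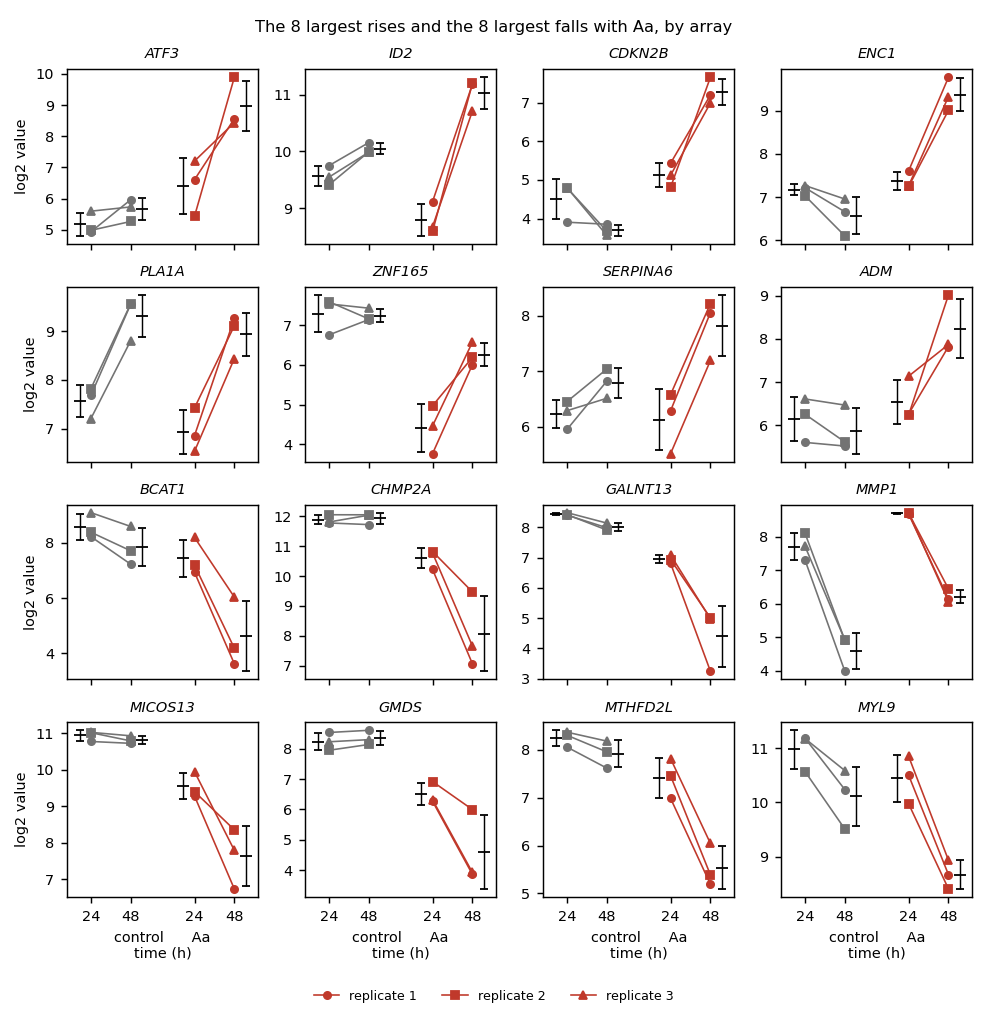
Log2 values by array of the top 8 rising and top 8 falling genes with Aa, at 24 h and 48 h in control (grey) and Aa cells (red). Lines join arrays of the same replicate number, and black bars give the mean and SD of 3 arrays. The rule for these 16 genes asked that the Aa arrays of the times not overlap. In the controls MMP1, PLA1A and ID2 were called in the same direction and ENC1 in the opposite one. Other genes shown also change there, among them MYL9 by -0.87, CDKN2B by -0.80 and BCAT1 by -0.72.

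Genes of mitosis rose with Aa between the times. Of 81 genes in 4 lists, 47 rose (58.0%, against 11.4% of all genes) and 1, ZW10 of the kinetochore, fell. The median change was 0.41, against 0.01 over all genes tested. The lists gave 11 of 17 for mitotic entry and cyclins, 21 of 28 for kinesins and spindle, 12 of 27 for kinetochore and checkpoint and 3 of 9 for condensin and topoisomerase. The median was above 0 in each replicate pair, at 0.42, 0.29 and 0.51. Without the replicate block 21 rose and none of the 81 fell. Without replicate 1, 2 or 3 of every group 0, 31 and 7 rose, at medians of 0.43, 0.46 and 0.35, and without replicate 1 limma gave 45 of them an unadjusted p under 0.05 with a rise.

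KIF20A, a kinesin of cytokinesis, had the largest change of the 81 genes. It read 9.64, 9.94 and 9.43 at 24 h and 10.71, 10.73 and 10.68 at 48 h, and rose by 1.04 ± 0.11 (SE, adjusted p = 0.00123). The 3 arrays at 48 h were nearly equal and all above those at 24 h. Among the genes of entry, CCNB2, a B-type cyclin, read 10.76, 11.20 and 10.59 at 24 h and 11.67, 11.67 and 11.61 at 48 h and rose by 0.80 ± 0.12 (SE, adjusted p = 0.00381). CDC25C, the phosphatase that activates CDK1, rose by 0.89 (adjusted p = 0.0052), its relative CDC25B by 0.57 (adjusted p = 0.0103) and the CDK partner CKS1B by 0.45 (adjusted p = 0.0102). Of the spindle genes, KIF14 rose by 0.91 (adjusted p = 0.00545), HMMR, a centrosomal protein, by 0.78 (adjusted p = 0.00518) and ASPM, which focuses spindle poles, by 0.54 (adjusted p = 0.005). At the kinetochore CENPF rose by 0.60 (adjusted p = 0.00256) and CENPE, its motor, by 0.64 (adjusted p = 0.0115). PTTG1, the securin that holds separase in check, rose by 0.74 (adjusted p = 0.00325), and ESPL1, the separase itself, by 0.77 (adjusted p = 0.00413). TOP2A, the topoisomerase that untangles chromosomes, read 12.62, 12.63 and 12.43 at 24 h and 13.22, 13.24 and 13.21 at 48 h and rose by 0.66 ± 0.08 (SE, adjusted p = 0.00187). NCAPD2, a condensin subunit, rose by 0.57 (adjusted p = 0.00725) and MKI67, which coats mitotic chromosomes, by 0.56 (adjusted p = 0.00815). 1 of 3 TOP2A probe sets and 2 of 4 of MKI67 did not move the same way. NCAPG of condensin, with a change of 0.21 (adjusted p = 0.166), was not called. From the 15 called genes named here, CKS1B, CDC25B and NCAPD2 lost their call without the replicate block, with an adjusted p of 0.0545 to 0.0876. Leaving out replicate 1, 2 or 3 in every group left 0, 14 and 6 calls. Without replicate 3 CCNB2, CDC25C, ASPM, PTTG1, CENPE and MKI67 were among those lost.

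In control cells, which received no Aa, the same 81 genes went the other way between 24 h and 48 h. In that comparison 17.8% of all genes tested were called, 8.69% up and 9.09% down, and of the 81 genes none rose and 59 fell, at a median of -0.51. The difference between the change with Aa and the change in controls was called in 11.0% of all genes tested, 6.28% above 0 and 4.68% below. It was called above 0 in 67 of the 81 genes and below 0 in none. KIF20A changed by -0.45 (adjusted p = 0.0269) in controls, a difference of 1.49 ± 0.16 (SE, adjusted p = 0.00549). In controls TOP2A changed by -0.36 (adjusted p = 0.0179), a difference of 1.02, and CCNB2 by -0.41 (adjusted p = 0.0472), a difference of 1.21. At 24 h the 81 genes had a median -0.23 log2 units from controls and at 48 h one of 0.63, so Aa cells passed from below to above the control level. Without the replicate block 54 genes of all tested (0.500%) were called in controls and 89 (0.825%) for the difference. Without replicate 1 the difference was called by limma in 0 genes, with 1190 above 0 and 772 below at an unadjusted p under 0.05, against 1 call without replicate 3 and 445 without replicate 2.

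Genes of DNA replication fell instead. Of 32 genes for licensing and the replication fork, 16 fell and none rose with Aa, at a median of -0.32. GINS2 of the replicative helicase read 10.56, 10.87 and 10.86 at 24 h and 9.60, 10.09 and 9.66 at 48 h and fell by 0.98 ± 0.12 (SE, adjusted p = 0.00193). POLA1, the catalytic subunit of the priming polymerase, read 9.87, 10.30 and 9.98 at 24 h and 8.95, 9.50 and 8.95 at 48 h and fell by 0.92 ± 0.12 (SE, adjusted p = 0.00249). MCM5 and MCM7, which form part of the helicase ring, fell by 0.76 (adjusted p = 0.00146) and 0.53 (adjusted p = 0.00232). For GINS2, POLA1 and MCM5, named for a small p, the arrays of the times did not overlap, as in 24.2% of all genes tested. Replicate 2 was highest at 48 h in GINS2 and POLA1. In controls 20 of the 32 fell, against 9.09% of all genes, and none rose, at a median of -0.40. The difference was called in 5 of the 32, all above 0, where 6.28% of all genes were called. It was called in none of GINS2, POLA1, MCM5 and MCM7. Without the replicate block 6 of the 32 fell with Aa, and without replicate 1, 2 or 3 of every group 0, 11 and 3 fell (without replicate 1, 17 of them at an unadjusted p under 0.05 in limma).

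Of 21 genes that govern the step from G1 to S phase, 4 rose and 4 fell with Aa (38.1% called). CDKN2B, described above, rose, and so did CCND1, the D-type cyclin that answers growth factors, by 1.15 ± 0.19 (SE, adjusted p = 0.00524). Its arrays read 8.004, 6.92 and 8.39 at 24 h and 8.94, 8.55 and 9.28 at 48 h, with replicate 2 lowest at both times. CCNE1, the cyclin of S phase entry, fell by 0.64 (adjusted p = 0.00325) and CDK6, a partner of D-type cyclins, by 0.59 (adjusted p = 0.0043). CCNE1 and CDK6 also fell in controls, by 0.62 (adjusted p = 0.00449) and 0.44 (adjusted p = 0.0134), while CCND1 changed there by -0.43 (adjusted p = 0.151). Of 9 genes of deoxynucleotide supply (22.2% called, near the 21.3% of all genes) 2 rose, SAMHD1, which breaks down deoxynucleotides, by 0.34 (adjusted p = 0.0128), and DCK, a salvage kinase, by 0.32 (adjusted p = 0.0303). In the group of 9 called genes named here, MCM7, CCND1, SAMHD1 and DCK lost their call without the replicate block, with an adjusted p of 0.123 to 0.175. Fits without replicate 1, 2 or 3 of every group called 0, 7 and 4 of them.

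**Figure D3:**
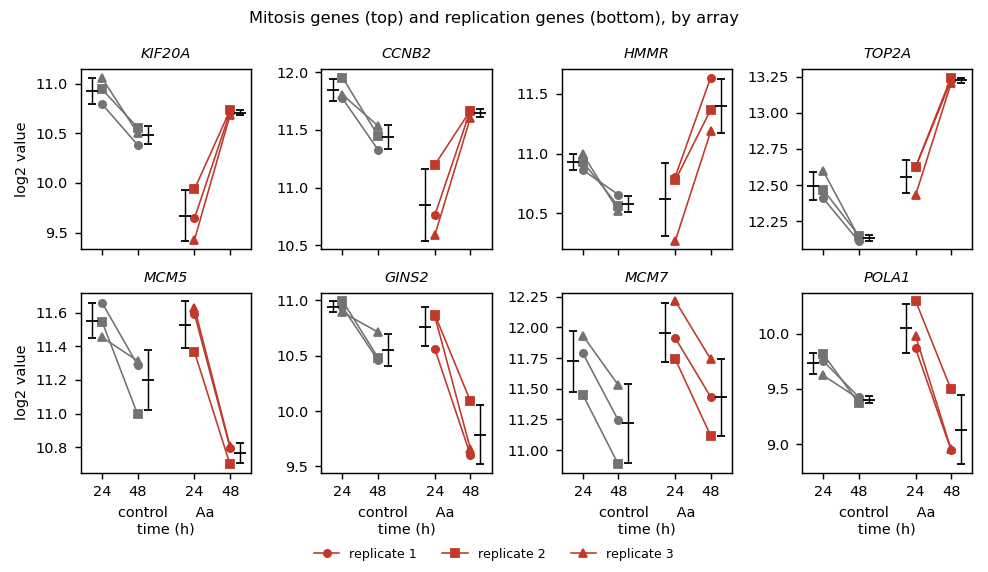
Log2 values by array of 4 mitosis genes (top) and 4 replication genes (bottom) at 24 h and 48 h, in control (grey) and Aa cells (red). Lines join arrays of the same replicate number and black bars give the mean and SD of 3 arrays. The mitosis genes rise with Aa and decline in controls, and the replication genes are lower at 48 h in both.

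The promoters of these gene groups are shown because the groups moved apart, mitosis genes up and replication genes down. The 250 bases before the start site come from RefSeq (GRCh38.p14): CCNB2 chr15:59104896-59105145 on the plus strand, HMMR chr5:163460382-163460631 on the plus strand and TOP2A chr17:40417897-40418146 on the minus strand. In these 3 mitosis promoters the capitals mark the CHR letters TTTGAA or TTCGAA and the CCAAT box, CCAAT, on either strand.
CCNB2: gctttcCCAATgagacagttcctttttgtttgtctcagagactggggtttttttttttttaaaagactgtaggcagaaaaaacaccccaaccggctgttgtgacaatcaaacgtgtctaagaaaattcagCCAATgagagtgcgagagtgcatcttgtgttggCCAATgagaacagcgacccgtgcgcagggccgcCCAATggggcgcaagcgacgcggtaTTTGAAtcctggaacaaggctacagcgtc
HMMR: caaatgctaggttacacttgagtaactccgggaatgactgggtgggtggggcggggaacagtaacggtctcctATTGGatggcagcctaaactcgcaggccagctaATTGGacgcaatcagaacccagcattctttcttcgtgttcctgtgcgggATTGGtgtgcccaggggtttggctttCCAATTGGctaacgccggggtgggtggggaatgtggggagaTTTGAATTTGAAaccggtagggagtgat
TOP2A: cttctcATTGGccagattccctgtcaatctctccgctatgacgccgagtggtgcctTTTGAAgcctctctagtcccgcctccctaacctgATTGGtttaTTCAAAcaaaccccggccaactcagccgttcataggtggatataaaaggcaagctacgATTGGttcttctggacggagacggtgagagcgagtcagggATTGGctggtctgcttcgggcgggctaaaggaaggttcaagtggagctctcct
For comparison, the replication promoters are MCM7 chr7:100101398-100101647 on the minus strand, GINS2 chr16:85688955-85689204 on the minus strand and POLA1 chrX:24693668-24693917 on the plus strand. Here the capitals mark E2F letters, TTTGGCGC, TTTCGCGC, TTTCCCGC or TTTGCCGC, on either strand.
MCM7: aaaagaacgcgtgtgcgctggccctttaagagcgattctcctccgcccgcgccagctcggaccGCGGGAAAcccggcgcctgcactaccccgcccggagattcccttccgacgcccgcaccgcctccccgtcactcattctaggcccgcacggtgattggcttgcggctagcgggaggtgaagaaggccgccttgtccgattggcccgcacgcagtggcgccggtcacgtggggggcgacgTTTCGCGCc
GINS2: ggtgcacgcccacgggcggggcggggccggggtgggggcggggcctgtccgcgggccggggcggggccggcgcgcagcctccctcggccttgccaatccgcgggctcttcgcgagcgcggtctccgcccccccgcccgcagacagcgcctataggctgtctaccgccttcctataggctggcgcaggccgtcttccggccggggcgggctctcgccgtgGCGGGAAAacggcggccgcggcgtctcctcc
POLA1: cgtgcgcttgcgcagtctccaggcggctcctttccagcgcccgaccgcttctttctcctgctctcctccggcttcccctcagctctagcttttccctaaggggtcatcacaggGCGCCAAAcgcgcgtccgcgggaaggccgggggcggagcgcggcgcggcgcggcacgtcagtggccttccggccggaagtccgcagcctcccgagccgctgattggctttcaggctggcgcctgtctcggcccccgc

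A promoter window of 300 bases, 250 before and 50 after the start, was found for 8926 of the 10791 genes tested. CHR letters were in 50 of the 69 mitosis promoters (72.5%), in 1 of 28 replication promoters (3.57%) and in 978 of all 8926 (11.0%). CHR letters and a CCAAT box together were in 39 of the 69 (56.5%) and in 4.74% of all. E2F letters were in 17 of 28 replication promoters (60.7%), in 5 of 69 mitosis promoters (7.25%) and in 5.70% of all. The CCAAT box alone was in 71.0% of the mitosis, 64.3% of the replication and 37.4% of all promoters. None of the motifs contains another. Among mitosis genes that rose, 29 of 39 promoters (74.4%) held CHR letters, close to the share in all 69. A match describes the letters of the window and is no evidence of binding.

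Of 18 listed histone genes of the clusters, 13 had a probe set and 6 passed the filter. With Aa 4 of these 6 rose (66.7%, against 11.4% of all genes). The median change of the 6 was 1.03, with 1.07, 1.49 and 0.19 in replicate pairs 1, 2 and 3. H1-2, a linker histone, read 6.30, 6.24 and 6.42 at 24 h and 7.26, 7.70 and 7.33 at 48 h and rose by 1.11 ± 0.14 (SE, adjusted p = 0.00196). The core histone genes H2BC5, H2AC6 and H2BC12 rose by 1.14 (adjusted p = 0.00887), 1.14 (adjusted p = 0.0469) and 0.95 (adjusted p = 0.0312). H2AC6 read 5.16, 5.03 and 5.10 at 24 h and 6.84, 6.85 and 5.03 at 48 h, so that replicate 3 did not rise. Core histone genes are near copies of each other, and probe sets may share signal between them. Without the block 2 of the 6 rose, and without replicate 1, 2 or 3 of every group 1, 1 and 4 rose.

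Of 25 p53 target genes, 6 rose and 2 fell with Aa (32.0% called, against 21.3% of all genes). In controls 4 rose and 3 fell. GDF15, a stress cytokine, read 10.92, 10.89 and 10.82 at 24 h and 12.22, 11.72 and 11.96 at 48 h and rose by 1.09 ± 0.15 (SE, adjusted p = 0.00323). It also rose in controls, by 0.77 (adjusted p = 0.0123), as did CCNG1, a cyclin of the p53 response, which rose by 0.51 (adjusted p = 0.00482) with Aa. TP53I3, a quinone oxidoreductase, rose by 0.77 ± 0.13 (SE, adjusted p = 0.0054) with Aa and fell by 0.57 (adjusted p = 0.0185) in controls, a difference of 1.34 (adjusted p = 0.00703). GADD45A, which binds PCNA and stress kinases, rose by 0.90 (adjusted p = 0.00625). Of 28 DNA repair genes, 4 fell and none rose (14.3% called, below the 21.3% of all genes): BLM, a helicase, by 0.58 (adjusted p = 0.0117), UNG, which removes uracil from DNA, by 0.34 (adjusted p = 0.0159), MSH6 of mismatch repair by 0.33 (adjusted p = 0.0299) and EXO1, an exonuclease, by 0.38 (adjusted p = 0.0482). The median of the repair list was -0.06, against 0.01 over all genes tested. In controls 6 of the 28 fell and 2 rose, at a median of -0.15. Of the 12 called genes named here, H2BC12, H2AC6, CCNG1, BLM, UNG, MSH6 and EXO1 lost their call without the replicate block, with an adjusted p of 0.0505 to 0.268. With replicate 1, 2 or 3 left out of every group, 1, 7 and 4 of them were called. Without replicate 2 the 3 core histone genes, MSH6 and EXO1 were lost, and only H1-2 was called in every alternative run.

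Of 21 immediate early genes, which answer growth factors and stress within minutes, 8 rose and none fell with Aa. The share that rose was 38.1%, against 11.4% of all genes, and the median was 0.22. Besides ATF3, IER5 read 9.22, 9.01 and 9.18 at 24 h and 10.51, 10.23 and 10.21 at 48 h and rose by 1.18 ± 0.16 (SE, adjusted p = 0.00258). KLF4, a zinc finger factor of epithelial differentiation, read 7.78, 7.97 and 7.68 at 24 h and 9.34, 8.98 and 9.31 at 48 h and rose by 1.40 ± 0.24 (SE, adjusted p = 0.00588). CCN2, a matrix-associated growth factor, rose by 0.93 (adjusted p = 0.00389) and JUN, a subunit of AP-1, by 0.56 (adjusted p = 0.00518). In controls 2 of the 21 rose and 1 fell, and the difference was above 0 in 7 genes and below in 1. It was 1.37 (adjusted p = 0.01) for IER5, 1.74 (adjusted p = 0.0167) for KLF4 and 1.01 (adjusted p = 0.0175) for CCN2, while that of ATF3, 2.06 (adjusted p = 0.0874), was not called. Without the block 6 of the 21 rose, and without replicate 1, 2 or 3 of every group 1, 8 and 3 rose. The AP-1 letters TGACTCA were in 1 of 16 promoters of this list (6.25%) and in 2.78% of all, and the CRE letters TGACGTCA in 1 of 16 and in 3.35% of all.

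Of 16 genes of the EGF receptor ligands and of feedback on ERK signalling, 5 rose and 1 fell. That is 37.5% called, against 21.3% of all genes. HBEGF, a ligand of the receptor, read 8.17, 7.47 and 8.76 at 24 h and 9.10, 9.87 and 9.10 at 48 h and rose by 1.22 ± 0.36 (SE, adjusted p = 0.0406), with replicate 2 rising most. In controls HBEGF changed by -1.12 (adjusted p = 0.0597), a difference of 2.35 (adjusted p = 0.0237). EREG, another ligand, fell by 0.85 (adjusted p = 0.00232). The phosphatases DUSP6 and DUSP10, which switch off ERK and stress kinases, rose by 0.47 (adjusted p = 0.0157) and 0.71 (adjusted p = 0.0316), and ERBB3, a related receptor, by 0.50 (adjusted p = 0.0297). None of the 16 was called by limma without the block, where 3 rises and 1 fall had an unadjusted p under 0.05. Of 18 genes of NF-kB and inflammation 6 rose (33.3%, against 11.4% of all genes) and none fell, at a median of 0.32. None of the 18 was called by limma without the block, where 3 rises had an unadjusted p under 0.05. Without replicate 1, 2 or 3 of every group 0, 5 and 1 of the 18 rose (without replicate 1, 6 at an unadjusted p under 0.05 in limma). ICAM1, an adhesion molecule for leukocytes, read 9.14, 8.93 and 9.36 at 24 h and 9.98, 9.46 and 10.02 at 48 h and rose by 0.67 ± 0.09 (SE, adjusted p = 0.003). NFKB2, a subunit of the factor, rose by 0.52 (adjusted p = 0.0105), and its inhibitors TNFAIP3 and NFKBIA by 1.04 (adjusted p = 0.0122) and 0.38 (adjusted p = 0.0236). Among the 13 called genes named here, JUN, EREG, DUSP6, DUSP10, ERBB3, HBEGF, ICAM1, NFKB2, TNFAIP3 and NFKBIA lost their call without the replicate block, with an adjusted p of 0.0637 to 0.473. The numbers called without replicate 1, 2 or 3 of every group were 2, 11 and 2.

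Of 18 genes of TGF-beta and BMP signalling, 2 rose and 3 fell with Aa (27.8% called, against 21.3% of all genes). ID2, a BMP target, rose as given above. LTBP2, a protein of microfibrils related to those that bind latent TGF-beta, read 8.93, 8.69 and 9.03 at 24 h and 7.75, 7.68 and 7.92 at 48 h and fell by 1.10 ± 0.13 (SE, adjusted p = 0.0017), and it fell in controls too, by 0.65 (adjusted p = 0.0118). INHBA, a chain of activin, fell by 1.14 (adjusted p = 0.0389) and TGFBI, a matrix protein, by 0.49 (adjusted p = 0.0111). TGFBI fell further in controls, by 1.10 (adjusted p = 0.00129), with a difference of 0.61 (adjusted p = 0.03). Of 25 matrix and protease genes 4 rose and 4 fell (32.0% called, against 21.3% of all genes), at a median of 0.10. MMP1 and MMP7, a matrilysin, fell, MMP7 by 0.90 (adjusted p = 0.00787), and COL4A1, a collagen of basement membranes, fell by 0.33 (adjusted p = 0.0174). SPARC, a matrix glycoprotein, rose by 0.28 (adjusted p = 0.0216). In controls 3 of the 25 rose and 8 fell. From the 6 called genes named here, TGFBI, INHBA, MMP7, COL4A1 and SPARC lost their call without the replicate block, with an adjusted p of 0.0738 to 0.282. Leaving out replicate 1, 2 or 3 in every group left 1, 1 and 2 calls. LTBP2 was called in every alternative run.

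Genes of cholesterol synthesis and uptake rose with Aa: 10 of 19 were called up (52.6%, against 11.4% of all genes) and none down. The median was 0.33. STARD4, which carries cholesterol inside the cell, read 9.94, 10.23 and 9.61 at 24 h and 10.98, 10.80 and 10.64 at 48 h and rose by 0.88 ± 0.13 (SE, adjusted p = 0.0033). The synthesis enzymes MSMO1, SQLE and HSD17B7 rose by 0.52 (adjusted p = 0.00502), 0.50 (adjusted p = 0.00554) and 0.52 (adjusted p = 0.0059). The medians of the 3 replicate pairs were 0.36, 0.28 and 0.39. In controls 2 rose and 1 fell, and the difference was called in 2 genes. The list stood below controls at both times, by a median of -0.54 at 24 h and -0.35 at 48 h. Without the block 5 of the 19 rose, and without replicate 1, 2 or 3 of every group 0, 6 and 1 rose (without replicate 1, 7 at an unadjusted p under 0.05 in limma).

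Of 10 genes of fatty acid synthesis 2 rose and 2 fell (40.0% called, against 21.3% of all genes). PNPLA3, a lipid hydrolase under the control of the sterol regulatory factors, read 8.04, 7.80 and 7.62 at 24 h and 8.80, 8.63 and 8.79 at 48 h and rose by 0.91 ± 0.09 (SE, adjusted p = 0.000765), and ACSS2, which makes acetyl-CoA from acetate, rose by 0.76 (adjusted p = 0.00593). ME1, the malic enzyme that supplies NADPH, fell by 0.71 (adjusted p = 0.00295) and ACACA, the acetyl-CoA carboxylase, by 0.27 (adjusted p = 0.0309). Of 15 genes of fatty acid oxidation, the main fuel pathway of the proximal tubule, 6 rose and 1 fell, at a median of 0.27. That is 46.7% called, against 21.3% of all genes. In controls 5 of the 15 rose and 1 fell, and the difference was above 0 in 3 and below in 2. With Aa limma called 0, 6 and 0 rises in that list without replicate 1, 2 or 3 (8 and 7 rises without replicate 1 or 3 at an unadjusted p under 0.05). CPT2 of the carnitine shuttle rose by 0.55 (adjusted p = 0.00675), the dehydrogenase ACADM by 0.51 (adjusted p = 0.0082), the thiolase ACAA2 by 0.37 (adjusted p = 0.013) and PLIN2, which coats lipid droplets, by 0.62 (adjusted p = 0.0136). In the group of 12 called genes named here, ACACA, ACADM and ACAA2 lost their call without the replicate block, with an adjusted p of 0.104 to 0.148. Fits without replicate 1, 2 or 3 of every group called 1, 11 and 2 of them. PNPLA3 was called in every alternative run, and STARD4 and PNPLA3 were the 2 called without replicate 3.

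Genes of glucose use went both ways. Of 20 glycolysis genes 2 rose and 3 fell (25.0% called, near the 21.3% of all genes), at a median of -0.02: PFKFB3, which makes an activator of phosphofructokinase, rose by 0.45 (adjusted p = 0.00381) and PFKM, the muscle form of that enzyme, by 0.29 (adjusted p = 0.0403), while GPI and PGK1 fell by 0.42 (adjusted p = 0.00573) and 0.29 (adjusted p = 0.0248). Of 31 subunits of oxidative phosphorylation 2 rose and 1 fell (9.7%). ATP5MC1 of the ATP synthase fell by 0.55 (adjusted p = 0.00574), and ATP5F1B, its catalytic subunit, and NDUFA2 of complex I rose by 0.21 (adjusted p = 0.0337) and 0.28 (adjusted p = 0.0329). Of 18 hypoxia genes 7 rose (38.9%, against 11.4% of all genes) and 2 fell with Aa, at a median of 0.13. In controls 3 rose and 1 fell, at a median of 0.14. The difference was called above 0 in 1 gene and below in 2. Without replicate 1, 2 or 3 of every group 0, 4 and 1 rose with Aa (without replicate 1, 9 at an unadjusted p under 0.05 in limma). CA12, a carbonic anhydrase of the membrane, read 7.98, 8.75 and 6.66 at 24 h and 9.58, 9.67 and 7.96 at 48 h and rose by 1.27 ± 0.24 (SE, adjusted p = 0.00845), with replicate 3 lowest at both times. VEGFA, a growth factor of blood vessels, rose by 0.55 (adjusted p = 0.0131), and DDIT4, an inhibitor of mTORC1, fell by 0.46 (adjusted p = 0.0121). Of the 10 called genes named here, PFKFB3, GPI, PGK1, PFKM, CA12, DDIT4, NDUFA2 and ATP5F1B lost their call without the replicate block, with an adjusted p of 0.0813 to 0.283. With replicate 1, 2 or 3 left out of every group, 0, 5 and 1 of them were called.

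Metallothioneins, the small proteins that bind zinc and copper, fell with Aa. Of 10 genes in this list 7 fell (70.0%, against 9.96% of all genes) and none rose, at a median of -0.37. MT1X read 13.71, 13.52 and 13.52 at 24 h and 13.19, 13.05 and 13.03 at 48 h and fell by 0.49 ± 0.07 (SE, adjusted p = 0.00398), and MT1G, MT1F and MT2A fell by 0.53 (adjusted p = 0.00494), 0.39 (adjusted p = 0.00577) and 0.44 (adjusted p = 0.0075). The arrays of the times did not overlap in any of these 4 genes, which were named for the smallest p of the list. Over all genes tested 24.2% did not overlap. In controls 1 of the 10 rose and 1 fell, and the difference was called in none, with an adjusted p of 0.0769 for MT1G and 4 genes below 0 at an unadjusted p under 0.05 in limma. Without the block 4 of the 10 fell, and without replicate 1, 2 or 3 of every group 0, 5 and 2 fell (without replicate 1, 7 at an unadjusted p under 0.05 in limma). The MT1 genes are near copies of each other, and a probe set may read several.

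In 4 other stress programs the shares called were near the 21.3% of all genes tested, so the counts set none of these lists apart. Of 29 genes that respond to amino acid shortage through ATF4, 6 rose and 1 fell with Aa (24.1% called) and 7 rose and 1 fell in controls. CTH, which makes cysteine, rose by 0.70 (adjusted p = 0.00611) with Aa and by 0.79 (adjusted p = 0.00493) in controls. STC2, a secreted glycoprotein, rose by 1.16 (adjusted p = 0.0108) and VLDLR, a lipoprotein receptor, by 0.56 (adjusted p = 0.0167), while SLC7A1, a carrier of arginine and lysine, fell by 0.57 (adjusted p = 0.00707). Of 20 genes of the unfolded protein response 3 rose and 1 fell (20.0%). ERN1, the sensor IRE1, read 7.42, 7.32 and 6.80 at 24 h and 8.28, 8.25 and 8.03 at 48 h and rose by 1.01 ± 0.21 (SE, adjusted p = 0.0114), and DNAJB9 and MANF rose by 0.40 (adjusted p = 0.0234) and 0.45 (adjusted p = 0.03). ATF6, another sensor, fell by 0.37 (adjusted p = 0.0179) with Aa and rose by 0.35 (adjusted p = 0.0267) in controls. Of 15 heat shock genes 3 rose (20.0%): CRYAB by 0.40 (adjusted p = 0.0131), HSPH1 by 0.45 (adjusted p = 0.0134) and DNAJA1 by 0.33 (adjusted p = 0.0167). HSPH1 changed by -0.23 when probe sets marked as shared were left out, where a probe set that went the other way stood for the gene. Of 20 antioxidant genes under NRF2, 1 rose and 4 fell (25.0%). AKR1C1, a ketosteroid reductase, rose by 0.91 (adjusted p = 0.0132), GCLM of glutathione synthesis fell by 0.55 (adjusted p = 0.0111) and TALDO1 of the pentose phosphate path by 0.29 (adjusted p = 0.015). Among the 18 called genes named here, CTH, VLDLR, ATF6, DNAJB9, MANF, CRYAB, DNAJA1, GCLM, AKR1C1 and TALDO1 lost their call without the replicate block, with an adjusted p of 0.064 to 0.36. The numbers called without replicate 1, 2 or 3 of every group were 2, 10 and 4.

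None of 26 cytosolic ribosomal protein genes was called by limma, 0 had an unadjusted p under 0.05, and their changes lay between -0.06 and 0.11. Of 25 genes of ribosome biogenesis 2 rose and 1 fell (a smaller share than the 21.3% of all genes): LYAR, a nucleolar protein, rose by 0.35 (adjusted p = 0.0135), and POLR1C and POLR1A of RNA polymerase I changed by 0.32 (adjusted p = 0.0469) and -0.34 (adjusted p = 0.0451). Of 24 proteasome genes (8.3% called) PSMA3 and PSMD1 fell, by 0.40 (adjusted p = 0.00484) and 0.48 (adjusted p = 0.0089). More splicing factors fell than rose: of 34 genes 9 fell (26.5%, against 9.96% of all genes) and 1 rose, at a median of -0.14. In controls 7 fell and none rose. Without the block 7 of the 34 fell with Aa. Without replicate 1, 2 or 3 of every group 0, 8 and 0 fell with Aa (without replicate 1 or 3, 9 each at an unadjusted p under 0.05 in limma). TRA2B, a regulator of exon choice, read 13.50, 13.51 and 13.49 at 24 h and 12.97, 13.17 and 13.06 at 48 h and fell by 0.43 ± 0.07 (SE, adjusted p = 0.0043). HNRNPC fell by 0.43 (adjusted p = 0.00597), SRSF1 by 0.50 (adjusted p = 0.00777) and HNRNPA2B1 by 0.40 (adjusted p = 0.00593). Probe sets disagreed for SRSF1, where 4 of 7 moved this way, and for HNRNPA2B1, where 1 of 3 did and the change without shared probe sets was 0.17. Of 28 elongation genes 2 rose and 4 fell (21.4% called, as among all genes). HEXIM1, which holds the elongation kinase P-TEFb inactive, rose by 0.46 (adjusted p = 0.0186), and AFF1, a scaffold of the elongation complex, fell by 0.39 (adjusted p = 0.00494), against a rise of 0.42 (adjusted p = 0.00476) in controls. LEO1 of the PAF1 complex fell by 0.46 (adjusted p = 0.00815) and MNAT1, a subunit of the kinase of TFIIH, by 0.61 (adjusted p = 0.00825). From the 13 called genes named here, LYAR, POLR1A, POLR1C, AFF1, LEO1 and MNAT1 lost their call without the replicate block, with an adjusted p of 0.0512 to 0.384. Leaving out replicate 1, 2 or 3 in every group left 0, 10 and 0 calls.

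Genes of antigen presentation by MHC class I rose as a group: 11 of 14 were called up (78.6%, against 11.4% of all genes). None was called down, and all 14 changes were above 0, at a median of 0.43. HLA-B read 12.39, 12.14 and 12.40 at 24 h and 13.19, 12.65 and 12.84 at 48 h and rose by 0.59 ± 0.08 (SE, adjusted p = 0.003). HLA-C and HLA-E rose by 0.51 (adjusted p = 0.00322) and 0.48 (adjusted p = 0.00625), and PSMB8, a subunit of the immunoproteasome that cuts peptides for them, by 0.70 (adjusted p = 0.00422). In controls 2 of the 14 rose and 1 fell, and the difference was called in 3. HLA-B, HLA-C and HLA-E are close in sequence and may share signal. Without the block 2 of the 14 rose, and without replicate 1, 2 or 3 of every group 0, 8 and 1 rose (without replicate 1, 8 of them at an unadjusted p under 0.05 in limma). Of 22 interferon-stimulated genes 4 rose and 2 fell (27.3%, against 21.3% of all genes). IFITM1, which blocks virus entry, rose by 0.89 (adjusted p = 0.00187), IFI6 by 0.73 (adjusted p = 0.00854) and IFI35 by 1.33 (adjusted p = 0.00466). IFI35 began near the filter level and read 3.61, 4.54 and 4.04 at 24 h and 4.90, 5.35 and 5.93 at 48 h. PARP9 fell by 0.36 (adjusted p = 0.0126), but its 2 probe sets disagreed and the change was 0.08 without shared probe sets.

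Of 25 genes of lysosome and autophagy 7 rose and 1 fell (32.0% called, against 21.3% of all genes). GAA, which breaks down glycogen, read 7.19, 5.77 and 6.20 at 24 h and 8.08, 7.11 and 7.11 at 48 h and rose by 1.05 ± 0.14 (SE, adjusted p = 0.00245), with replicate 1 highest at both times. CTSL, a protease, rose by 0.52 (adjusted p = 0.00282) and MAP1LC3B, which marks autophagosomes, by 0.60 (adjusted p = 0.00361), while CTSB, another protease, fell by 0.53 (adjusted p = 0.00381), with 3 of its 5 probe sets moving this way. Of 17 apoptosis genes 3 rose and 1 fell (23.5% called, near the 21.3% of all genes), at a median of -0.03. BIK, a BH3-only protein that promotes apoptosis, read 8.03, 7.997 and 7.85 at 24 h and 8.75, 8.65 and 8.65 at 48 h and rose by 0.72 ± 0.11 (SE, adjusted p = 0.00394). CYCS, cytochrome c, and CASP8, an initiator caspase, rose by 0.27 (adjusted p = 0.0197) and 0.32 (adjusted p = 0.0393), and BCL2, which protects from apoptosis, fell by 0.60 (adjusted p = 0.0404). Over these lists and those of antigen presentation and interferon, in the group of 16 called genes named here, GAA, CTSB, CYCS, CASP8, BCL2, IFITM1, PARP9, HLA-B, HLA-C and HLA-E lost their call without the replicate block, with an adjusted p of 0.0508 to 0.499. Fits without replicate 1, 2 or 3 of every group called 0, 14 and 4 of them.

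Of 17 injury markers 2 rose and 1 fell with Aa (17.6% called, below the 21.3% of all genes). CLU, clusterin, rose by 0.60 (adjusted p = 0.00245) and rose likewise in controls, by 0.64 (adjusted p = 0.00297). CD44, a hyaluronan receptor, rose by 0.63 (adjusted p = 0.00325) with Aa and fell by 0.38 (adjusted p = 0.0215) in controls, a difference of 1.01 (adjusted p = 0.00633). VCAM1, an adhesion molecule, read 6.08, 6.56 and 6.60 at 24 h and 5.30, 5.79 and 5.17 at 48 h and fell by 0.99 ± 0.17 (SE, adjusted p = 0.00593). CDH6, a cadherin of the proximal tubule, read 12.44, 12.66 and 12.17 at 24 h and 10.86, 11.57 and 10.58 at 48 h and fell by 1.42 ± 0.12 (SE, adjusted p = 0.000624). CDH6 was named after its values were seen, and without probe sets marked as shared its change was near 0 (adjusted p = 0.999). Of 17 genes of solute transport (11.8% called) SLC6A8, the creatine carrier, rose by 0.52 (adjusted p = 0.00711) and SLC6A6, the taurine carrier, fell by 0.61 (adjusted p = 0.0287). WNK4, a kinase that controls salt carriers, had a change of 1.24 (adjusted p = 0.0888) and was not called. Of 14 clock genes 5 rose with Aa (35.7%, against 11.4% of all genes) and none fell, and 4 rose in controls. HLF, an output factor of the clock, rose by 0.73 (adjusted p = 0.00258) with Aa and by 0.78 (adjusted p = 0.00309) in controls, and BHLHE41, a repressor, by 0.46 (adjusted p = 0.0104) and 0.77 (adjusted p = 0.00269). BMAL1, the core activator, rose by 0.68 (adjusted p = 0.0321) and CIART, another repressor, by 0.50 (adjusted p = 0.0457). Of the 10 called genes named here, CLU, CD44, BHLHE41, BMAL1, CIART, SLC6A8 and SLC6A6 lost their call without the replicate block, with an adjusted p of 0.101 to 0.249. With replicate 1, 2 or 3 left out of every group, 1, 7 and 7 of them were called.

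The share of genes that fell with Aa was highest among the longest genes. Of 331 genes that span over 300 kb from start to end, 86 fell (26.0%, against 9.96% of all genes) and 12 rose (3.6%, against 11.4%). Their median was -0.32. From 100 to 300 kb 295 of 1593 fell (18.5%) and 71 rose. Of the 3170 genes of 10 to 30 kb, 463 rose (14.6%) and 194 fell (6.1%), at a median of 0.07. Below 100 kb there was no steady order: 12.9% rose and 9.2% fell under 10 kb, at a median of 0.03, and 11.4% rose and 8.5% fell from 30 to 100 kb, at a median of 0.005. The median of the longest genes was below 0 in each replicate pair, at -0.35, -0.20 and -0.38. In controls it was 0.12, and 37 of the 331 rose and 5 fell, where 8.69% of all genes rose and 9.09% fell. The difference was below 0 in 50 and above 0 in 3 of the 331, where 4.68% of all genes were below and 6.28% above. Without the block 23 of the longest genes fell and 4 rose, and without replicate 1, 2 or 3 of every group 6, 118 and 6 fell. At 24 h the longest genes already stood below controls, by a median of -0.54, and at 48 h by -1.05.

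GALNT13, GPC6, GMDS and DPH6 had the largest falls among genes of that length. GPC6, a glypican that spans 1191 kb, read 6.52, 7.06 and 6.90 at 24 h and 3.12, 6.39 and 4.15 at 48 h and fell by 2.27 ± 0.53 (SE, adjusted p = 0.0185), with replicate 2 falling least. In controls GPC6 changed by 0.96 (adjusted p = 0.239), a difference of -3.23 (adjusted p = 0.0303). GALNT13, which spans 1388 kb, read 6.81, 6.94 and 7.09 at 24 h and 3.24, 5.01 and 4.98 at 48 h. IMMP2L, a mitochondrial peptidase of 900 kb, fell by 1.45 (adjusted p = 0.0243), and its arrays overlapped because replicate 2 stayed at 5.44. Against this, JAZF1, a zinc finger gene of 350 kb, and NAV2, a gene of axon guidance of 776 kb, rose by 0.81 ± 0.12 (SE, adjusted p = 0.00353) and 0.78 ± 0.19 (SE, adjusted p = 0.0217). Among the 4 called genes named here, GPC6, IMMP2L and NAV2 lost their call without the replicate block, with an adjusted p of 0.0584 to 0.186. The numbers called without replicate 1, 2 or 3 of every group were 0, 3 and 1.

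**Figure D4:**
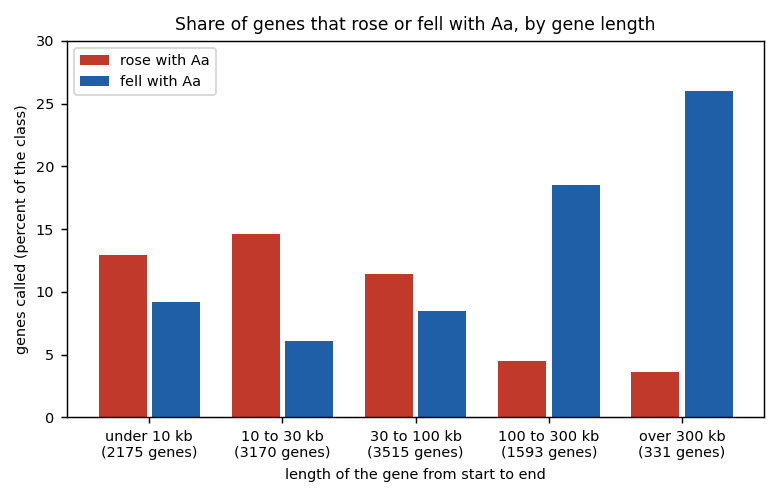
Share of genes called up (red) and down (blue) with Aa between 24 h and 48 h, in percent of the genes tested in each class of gene length (numbers of genes under the axis). The share that fell is 26.0% in the class over 300 kb and 6.1% in the class of 10 to 30 kb.

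Part of the change with Aa was shared with the controls. Of the 2303 genes called with Aa, 470 were also called in controls in the same direction, 262 up and 208 down, and 144 in the opposite one. The remaining 1689 were not called in controls, and the change had the same sign there in 1518 of the 2303. Across all 10791 genes the changes with Aa and in controls correlated at r = 0.22, and across the 2303 at 0.37, as a description over genes that share arrays. BLNK, an adaptor of B-cell receptor signalling, had the largest shared rise, 1.71 (adjusted p = 0.0223) with Aa and 3.76 (adjusted p = 0.00232) in controls. With Aa it read 2.95, 3.92 and 2.56 at 24 h and 5.19, 6.54 and 2.83 at 48 h, so that replicate 3 hardly moved. FREM2, a protein of the epithelial basement membrane, rose by 1.12 (adjusted p = 0.00181) and 1.51 (adjusted p = 0.00129), and PLA1A and ID2 also rose in both. MMP1 had the largest shared fall, with -3.10 (adjusted p = 0.000663) in controls, followed by LINC00973, a long non-coding RNA, INHBA and ZBED2, a zinc finger gene. LINC00973 changed by -1.29 (adjusted p = 0.027) with Aa and ZBED2 by -1.21 (adjusted p = 0.0357).

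The change with Aa differed from that of the controls in 676 genes that were also called with Aa. In 394 of these the change with Aa and the difference were both above 0, and in 278 both were below. Among genes with both Aa means at least 4, CDKN2B had the largest positive difference, 2.96 ± 0.39 (SE, adjusted p = 0.00703). It was followed by CCNA1, the germ-line A-type cyclin, at 2.91 (adjusted p = 0.0317), and by ENC1 at 2.61 (adjusted p = 0.00549). SERTAD1, a partner of CDK4, read 7.29, 6.75 and 7.21 at 24 h and 8.82, 8.63 and 8.78 at 48 h and had a difference of 2.08 (adjusted p = 0.00549). With the same limit on the means, GPC6, CHMP2A, GALNT13, BCAT1 and IMMP2L had the largest negative differences, of -3.23, -2.60, -2.11, -2.10 and -2.01. KCNQ5, with an Aa mean under 4 at 48 h, had a difference of -2.40. Genes called in opposite directions included ENC1 and CAVIN3, a protein of caveolae, which rose with Aa and fell in controls, CAVIN3 by 1.04 (adjusted p = 0.0106) and 0.72 (adjusted p = 0.0456). KCNQ5, a potassium channel, and the antisense transcript ZFHX4-AS1 fell with Aa, and rose in controls by 0.91 (adjusted p = 0.0469) and 0.88 (adjusted p = 0.0464). From the 8 called genes named here, CCNA1, BLNK, LINC00973, ZBED2, ZFHX4-AS1 and CAVIN3 lost their call without the replicate block, with an adjusted p of 0.0859 to 0.432. Leaving out replicate 1, 2 or 3 in every group left 2, 6 and 3 calls. SERTAD1 and FREM2 were called in every alternative run that tested them.

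**Figure D5:**
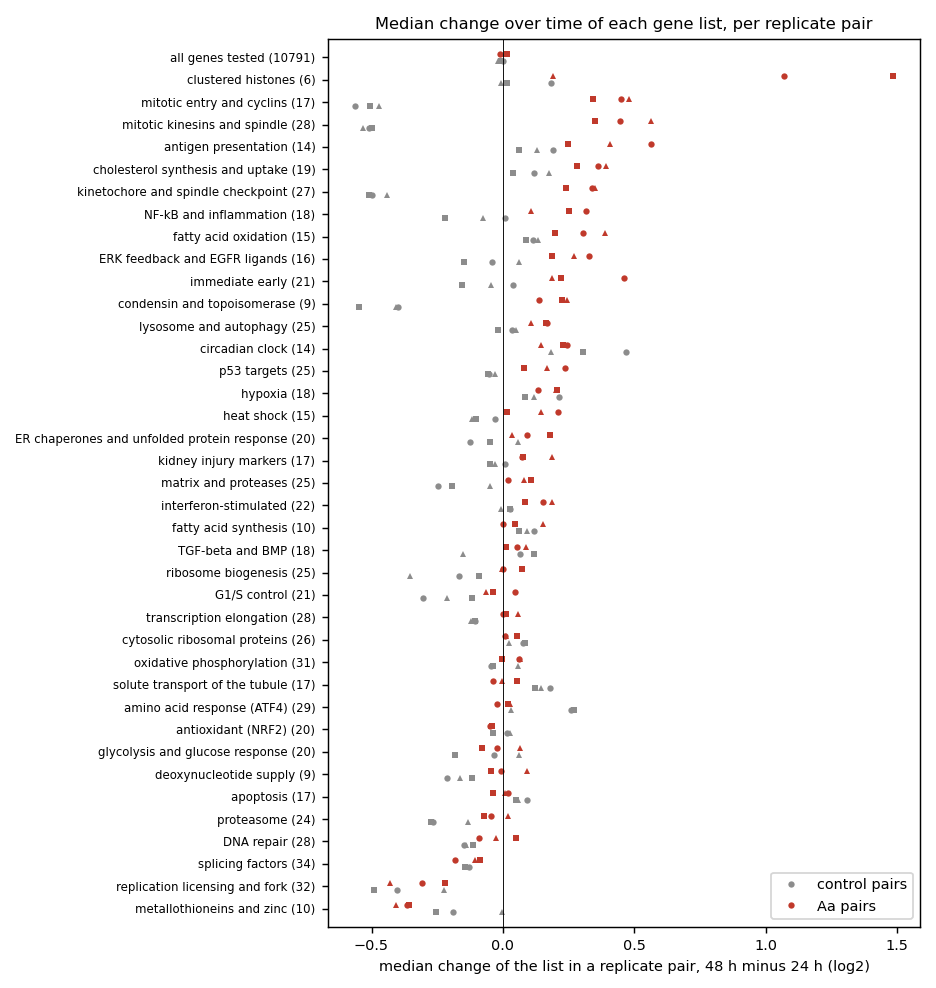
Median change from 24 h to 48 h (log2) of each gene list, in each of the 3 replicate pairs (circle 1, square 2, triangle 3) of Aa (red) and control cells (grey); the number of genes tested is in brackets. The Aa medians of the mitosis lists lie above 0 in all 3 pairs and the control medians below 0, and the replication list lies below 0 in both.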

How the data were processed

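RNA was hybridised to 12 Affymetrix arrays in 4 groups of 3. The authors deposited log2 values normalised with GCRMA, per the submitters' processing notes, with no version stated. GCRMA corrects for probe composition and pulls weak probe sets towards a common floor, which shrinks their changes. All value columns were matched to samples. The number of arrays limits the precision. The table holds 54675 probe sets, and GEO's platform annotation gave 41091 of them 1 symbol, 1801 several and 11783 none. Symbols were updated through GRCh38.p14, where 41037 were found. Each gene was represented by the probe set with the highest mean, and genes with a mean of at least 4 over the 12 arrays were tested (10791, of which 5263 had several such probe sets).

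A model of 4 group means with the replicate number as a block took in every array (limma 3.58.1, R 4.3.3; lmFit, eBayes, 6 residual and 2.87 prior degrees of freedom). Contrasts were Aa 48 h minus 24 h, control 48 h minus 24 h, and their difference. Tests were two-sided, with Benjamini-Hochberg adjustment over all genes tested, and calls used an adjusted p under 0.05. Rose and fell are used only for called genes. The comparison pairs arrays by biological replicate number. As a check, deviations from the group means correlated at 0.349 to 0.619 in all 18 pairs of arrays of the same number and at -0.49 to -0.011 in 36 pairs of other numbers. Deviations cancel out within a group, so positive values for the same number force negative ones on average for other numbers. The negative values are therefore no separate check. No array pair shared more than 8 identical values.

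The members and the 38 gene lists were chosen with earlier results of these data known. The 8 largest rises and falls named were called with and without the block, with Aa arrays that did not overlap and both Aa means at least 4. A further 4 of each had an Aa mean under 4. The 5 largest differences from controls in each direction were taken among genes with both Aa means at least 4. The 4 largest changes shared with or opposite to controls were named, and up to 4 genes with the smallest p in each list. Among genes spanning over 300 kb the 4 largest falls and 2 largest rises were named. CDH6, HLA-DMA, HLA-DMB, CD74, FOS and the fibroblast and epithelial markers with values were chosen after seeing them. Alternatives changed the block, the arrays, eBayes options, the filter, the probe set rule, the scaling and the replicates. The code was tested on simulated data.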

Additional observations from a re-analysis of the deposited data

Results flagged for a closer look

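The change from 24 h to 48 h with Aa differed from that of the controls in 77 of 172 genes named above. The test was the limma interaction with the replicate block (Benjamini-Hochberg adjusted p under 0.05). It called 11.0% of the 10791 genes. The count of 77 is no sign of enrichment. Named genes were chosen for their change with Aa, which is a term of the difference, or for the difference itself. Without the block the difference was called in 89 of the 10791 genes. Without replicate 1 of every group it was called in 0, and without replicate 3 in 1. The values that follow are the log2 change with Aa minus that of the controls. Of the mitosis genes the difference was CCNB2 1.21, CDC25C 1.30, CKS1B 0.83, KIF20A 1.49, KIF14 1.32, HMMR 1.13, ASPM 0.89, CENPF 1.05, PTTG1 0.98, ESPL1 1.41, CENPE 1.27, TOP2A 1.02, NCAPD2 1.08, MKI67 1.25 and NCAPG 0.83. Of the genes of cell cycle control, histones and p53 targets it was CCND1 1.58, SAMHD1 0.56, H1-2 1.17, TP53I3 1.34, CCNA1 2.91, SERTAD1 2.08 and CDKN2B 2.96. Early response, ERK and NF-kB genes had differences of IER5 1.37, CCN2 1.01, JUN 0.64, KLF4 1.74, HBEGF 2.35, DUSP10 1.48, ICAM1 0.59, NFKB2 0.68 and TNFAIP3 1.19. Among the other genes with large rises and TGFBI it was ID2 1.76, ENC1 2.61, ZNF165 1.90, SERPINA6 1.14, ADM 1.98, FZD7 1.87, TDRKH 1.32, CAVIN3 1.76 and TGFBI 0.61. Lipid, chaperone and synthesis genes gave CPT2 0.51, PNPLA3 0.57, DNAJA1 0.54, HSPH1 0.55, LYAR 0.84, POLR1C 0.50 and HEXIM1 0.73. Lysosomal, immune and surface genes gave GAA 0.81, CTSL 0.57, MAP1LC3B 0.61, BIK 0.78, IFI35 1.49, IFI6 0.70, HLA-B 0.43, HLA-E 0.51 and CD44 1.01. Below 0, genes named for their size gave BCAT1 -2.10, CHMP2A -2.60, GALNT13 -2.11, MICOS13 -1.79, MTHFD2L -1.56, MYL9 -0.91, VEGFC -1.87, MPND -1.60, KCNQ5 -2.40, GPC6 -3.23, IMMP2L -2.01 and ZFHX4-AS1 -1.83. Listed genes with a difference below 0 were ME1 -0.59, DDIT4 -0.63, SLC7A1 -0.66, ATF6 -0.72, AFF1 -0.81, CTSB -0.60, BCL2 -1.15, VCAM1 -1.03 and CDH6 -0.998.

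The 28S ribosomal control probe sets, which the comparisons do not use, had a mean of 7.56 log2 units over the 3 Aa arrays at 48 h and of 6.74 over the 3 control arrays at that time. The 18S probe sets had means of 7.91 and 7.55 in the same arrays. The part of both in the results was not tested.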

How the results depend on the processing

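The replicate block set the number of calls: without it 594 genes were called with Aa (331 up, 263 down), 54 in controls (25 up, 29 down) and 89 for the difference (80 above 0, 9 below), against 2303, 1919 and 1183 with it. A fit on the compared arrays alone gave 904 with Aa (506 up, 398 down). Array weights gave 2907 in controls (1410 up, 1497 down) and 1950 for the difference (1036 and 914), and a trended, robust eBayes gave 762 differences below 0. Without shared probe sets 1522 genes were called with Aa (780 up) and 1255 in controls (565 down), with 423 differences above 0, and without a filter 303 differences lay below 0. At an adjusted p under 0.01 the calls were 734 with Aa (406 up, 328 down), 530 in controls (265 up, 265 down) and 177 for the difference (129 and 48). With at least a 2-fold change they were 193 (101 up, 92 down), 80 (46 and 34) and 246 (147 and 99). Leaving out 1 replicate or 1 array gave 126 to 2086 calls with Aa (80 to 1007 up, 46 to 1079 down), 2 to 654 in controls (1 to 354 up, 1 to 300 down) and 0 to 1337 for the difference (0 to 641 above, 0 to 696 below). With Aa the calls were 1413, 1731 and 1197 without replicate 1, 2 or 3 at 24 h, and 1010, 2086 and 1296 without those at 48 h. Signs turned for HNRNPA2B1 (0.17), HSPH1 (-0.23) and PARP9 (0.08) without shared probe sets. Without shared probe sets 95 of the 170 called genes named were called by limma and 17 lost their call, CDH6 with a change near 0 (adjusted p = 0.999). The rest of the 170 had no other probe set above the filter and were not tested in that run. Of the 170, 88 were called without the block (24 of them by the rule that chose them) and 18 in every alternative run that tested them. After centring, 1080 genes rose and 1196 fell with Aa. The median change of all genes was 0.007, and -0.012 after centring. Genes near the array background have no reliable size.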

Other observations

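Families chosen after their values were seen add to the description. Of 325 genes whose symbol starts with ZNF and that are annotated as protein-coding, 50 rose (15.4%, against 11.4% of all genes tested) and 14 fell with Aa (limma with the replicate block), against 13 and 7 in controls, at a median of 0.12 with Aa. Without the block 22 rose and 3 fell. Of 76 mitochondrial ribosomal protein genes 20 fell (26.3%, against 9.96% of all genes tested) and 4 rose with Aa, and 21 fell and 2 rose in controls. Without the block 3 of the 76 fell and none rose with Aa. MRPL1 changed by -0.78 (adjusted p = 0.000628) with Aa and by -0.72 in controls.

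Genes of antigen presentation by MHC class II, which is usual in immune cells and can be induced in tubule cells, also rose with Aa. Only 3 were tested, and all 3 rose, at a median of 0.87, where 11.4% of all genes rose. In controls 2 of the 3 rose, at a median of 0.65, against 8.69% of all genes. The difference was called above 0 in 2 of them, against 6.28% of all genes. HLA-DMA, which helps to load peptides, read 5.98, 5.62 and 6.17 at 24 h and 7.40, 7.55 and 7.42 at 48 h and rose by 1.53 ± 0.15 (SE, adjusted p = 0.000829). In controls it rose by 0.65 (adjusted p = 0.0203). Its partner HLA-DMB rose by 0.87 (adjusted p = 0.00187) and CD74, the invariant chain, by 0.53 (adjusted p = 0.0064), CD74 not without the block (adjusted p = 0.182). FOS, a partner of JUN, read 5.04, 4.90 and 4.29 at 24 h and 6.48, 7.06 and 5.68 at 48 h and rose by 1.66 ± 0.29 (SE, adjusted p = 0.00615), with a change of -0.15 in controls. These genes were picked by eye, and no chance of such a choice was computed.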
